A study of Arabidopsis thaliana with 12 samples.

Results

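MT1C (AT1G07610) is a metallothionein gene of Arabidopsis thaliana, the thale cress of plant genetics. It was followed here through the only probe set that names it, 1 of the 13513 probe sets that name a single gene on this array. It was chosen by its measured signals, which were higher in shoots after caesium exposure than in control shoots. That shoot difference is therefore described without a test, and tests are given only for comparisons that do not contain it. The shoot signals still enter the comparison of organs. The spread used in the main fit was pooled over all 4 groups, shoots included.

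The series measured total RNA on 12 Affymetrix ATH1 arrays in a study of plants kept under long, weak exposure to caesium-137, a radionuclide known from nuclear fallout. The groups were Cs shoots, control shoots, Cs roots and control roots, with 3 arrays each, where "cs" in the labels is taken as caesium exposure from the series title. All 12 samples carry developmental stage 1.0, and the labels used here give no ecotype, genotype, dose, exposure time or age. They do not say whether replicates came from separate plants, so a p-value speaks only of the scatter among these samples, possibly technical. Values are deposited MAS5 signals on a linear scale, and differences are on the scale log2(signal + 11).

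Metallothioneins are small cysteine-rich proteins whose thiol groups bind metal ions, chiefly copper, zinc and cadmium in plants. They buffer free metal, are linked to metal tolerance and to the export of metal from ageing leaves, and can react with oxidants. The type 1 genes of Arabidopsis are known for strong transcripts in roots and in vascular tissue. In the TAIR10.1 RefSeq gene table, the close relative MT1A (AT1G07600) lies 2 entries before MT1C on chromosome 1, with the long non-coding RNA gene AT1G04603 between them. No probe set names MT1A alone in the annotation used here. Whether RNA of MT1A also binds the probes of this set was not tested, so the signal may include it.

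The MT1C signal lay far above the level needed to enter the tests (28.0 in shoots, 31.2 in roots) in every group, and it was higher in roots than in shoots. The MT1C signal was 4242, 4222 and 4242 in Cs roots 1, 2 and 3. It was 3576, 3588 and 4316 in control roots 1, 2 and 3. In these roots the Cs arrays lay almost on top of each other, and control root 3 lay above all of them. In Cs shoots 1, 2 and 3 the MT1C signal was 1356, 1177 and 1431. In control shoots 1, 2 and 3 it was 830, 862 and 964. Every root array stood above every shoot array, and every Cs shoot stood above every control shoot. Ordered by mean signal, MT1C ran from Cs roots (4235 ± 11.6) through control roots (3827 ± 424) and Cs shoots (1322 ± 130) to control shoots (885 ± 70.2; SD, n = 3 each). Cs roots and control roots, neighbours in this order, did not differ beyond their spread, while the other neighbours did not overlap.

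**Figure D1:**
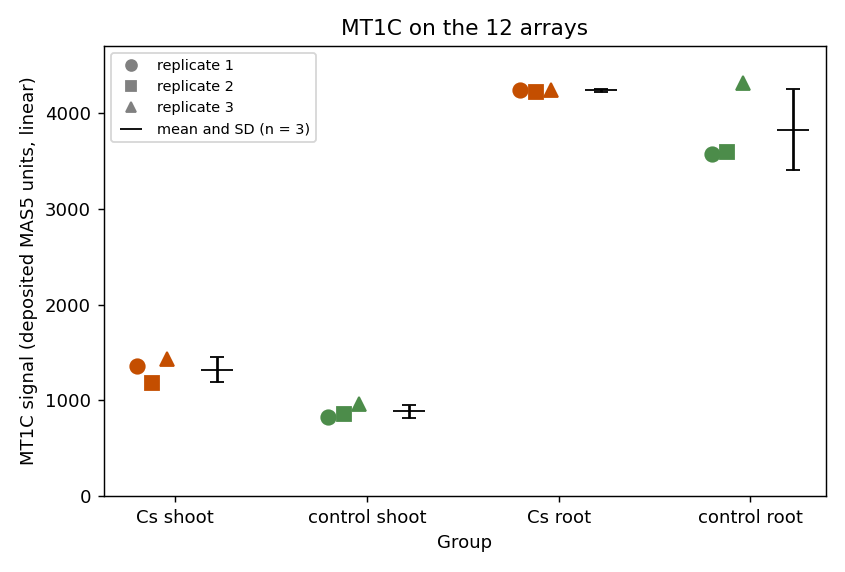
MT1C signal (linear MAS5 units) on each of the 12 arrays by group, with symbols for the replicate number and black marks for the mean and SD of 3 arrays. The 3 Cs shoots lie between 1177 and 1431 and the 3 control shoots between 830 and 964, while control root 3 at 4316 lies above the Cs roots at 4222 to 4242.

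The first tested comparison asked whether the MT1C transcript differed between roots and shoots. Averaging over exposure gave Cs and control shoots equal weight and the same sign, whereas the gene was chosen by the difference between them. The higher Cs shoot signals still enter the shoot mean. MT1C was higher in roots than in shoots by 1.89 ± 0.09 on the log2 scale (SE; limma fit to 12 arrays, adjusted p = 1.51e-09), which is 3.70-fold with a 95% interval of 3.22 to 4.24. The direction was seen in all 6 root arrays against all 6 shoot arrays, and the lowest root signal was 2.50 times the highest shoot signal. The exact two-sided permutation test of tissue within exposure gave p = 0.005, the smallest that its 400 regroupings allow. Differences between the organs were common on these arrays, since 71.1% of the 15508 tested probe sets passed the same test and 45.2% passed as higher in root. In 32.1% of them all 6 root arrays lay above all 6 shoot arrays. The median of all tested probe sets was itself 0.24 higher in root, so MT1C stood 1.65 above that median. With each array centred on its median, the median of all probe sets was 0.12 and MT1C again stood 1.65 above it. After quantile normalization MT1C had 2.34 (2.18 above the median), the highest value of any alternative. In such whole organs, fewer cells of a type and less RNA per cell cannot be told apart.

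Read within a replicate number, the root signal of MT1C was 3.13, 3.59 and 2.96 times the shoot signal for Cs numbers 1, 2 and 3. For control numbers 1, 2 and 3 it was 4.31, 4.16 and 4.48 times the shoot signal. All 3 Cs ratios were thus lower than all 3 control ratios. The labels do not say that a root and a shoot array of one number came from the same plants. These ratios also contain the shoot difference that singled the gene out, so they are a description.

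The next comparison asked whether MT1C differed between Cs and control roots, in arrays that took no part in the shoot difference. It did not pass the test. MT1C averaged 4235 in Cs roots and 3827 in control roots, a log2 difference of 0.15 ± 0.13 (SE; limma, unadjusted p = 0.261, adjusted p = 1). As a fold this is 1.11 with a 95% interval of 0.915 to 1.35, so a rise of up to 1.35-fold and a fall to 0.915-fold both lie inside it. Two-sided exact permutation of the root labels gave p = 0.4, where 3 arrays against 3 cannot go below 0.1. In this comparison 0% of the 15508 tested probe sets passed (0 by limma, 589 at an unadjusted p under 0.05), and MT1C was like the rest in not passing.

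Control root 3 stood apart from the other control roots in this comparison. Cs roots 1 and 2 had 1.19 and 1.18 times the MT1C signal of control roots 1 and 2, and Cs root 3 had 0.983 times that of control root 3. Without control root 3 the log2 difference was 0.24 (adjusted p = 1), and with quantile normalization it was 0.09. Over all alternatives that gave an adjusted p, it lay between 0.759 and 1. The median signal of all probe sets ran in part the same way, from 47.9 to 49.6 on the Cs root arrays and from 45.3 to 47.9 on the control root arrays. With each array centred on its median, the log2 difference of MT1C in roots was 0.10 ± 0.13, beside 0.15 ± 0.13 without centring (SE). Beyond this, the part of the array medians in the result was not tested.

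The 3 Cs roots resembled each other in MT1C more closely than is usual on these arrays. Their log2 SD was 0.0039, against a median of 0.202 over all tested probe sets in Cs roots, and 1 of the 15508 had a smaller one. In control roots the log2 SD of MT1C was 0.155, against a median of 0.187, and 39.3% of probe sets had a smaller one. Over all 4 groups the residual SD of MT1C was 0.120, below the median of 0.243 of all tested probe sets. It was also below the median of 0.202 of the 322 whose mean log2 signal lay within 1 of that of MT1C. A smaller residual SD was found in 4.43% of all tested probe sets and in 9.32% of those 322. The residual SD of MT1C includes the close agreement of the Cs roots and the shoot arrays by which the gene was chosen. Saturation of bright probes was not checked, since the values used here carry no such mark.

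In shoots, MT1C averaged 1322 ± 130 in Cs plants and 885 ± 70.2 in control plants (SD, n = 3 each). This is 1.49 times the control mean, or 0.57 ± 0.13 on the log2 scale (SE). The lowest Cs shoot, replicate 2, stood 213 signal units above the highest control shoot, replicate 3. Read within a number, Cs shoots 1, 2 and 3 had 1.63, 1.37 and 1.48 times the MT1C signal of the control shoots with the same number. The largest of these ratios came from the arrays numbered 1 and the smallest from those numbered 2. All 3 Cs shoots lay above all 3 control shoots in 4.2% of tested probe sets, but this contrast chose the gene and nothing is read from the count. No probe set passed in shoots (0% by limma, 324 at an unadjusted p under 0.05).

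**Figure D2:**
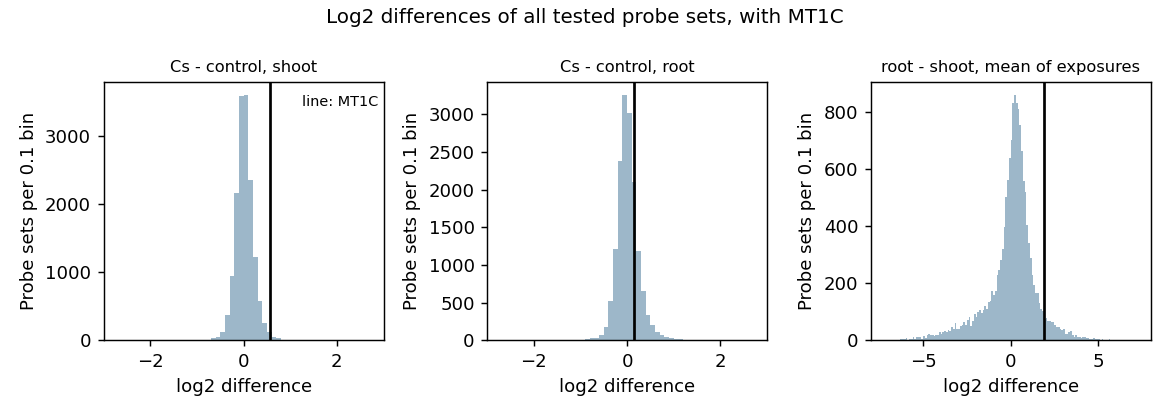
Number of tested probe sets (15508, in bins of 0.1) by log2 difference for Cs minus control in shoots, Cs minus control in roots, and root minus shoot averaged over exposure, with a vertical line at MT1C. The line stands at 0.57 in shoots, for which the gene was chosen, at 0.15 in roots and at 1.89 between the organs.

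Leaving out any 1 array kept the shoot difference of MT1C between 0.51 and 0.65 on the log2 scale. Shoot arrays numbered 1 stood apart from the others over all probe sets, and without the 4 arrays of that number, an alternative chosen after seeing the data, the difference was 0.51 ± 0.16 (SE). The median signal of all probe sets was 42.6 to 44.8 on Cs shoot arrays and 41.1 to 45.2 on control shoot arrays, so the groups overlapped in it. The Cs difference in roots minus that in shoots was -0.42 ± 0.18 (SE) for MT1C. It holds the shoot difference and so is given without a test.

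**Figure D3:**
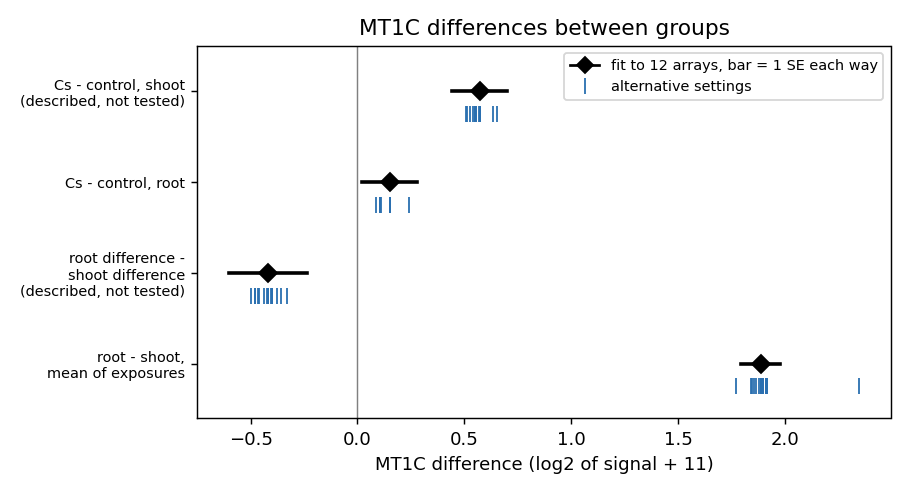
MT1C differences between groups in log2 of signal + 11, as diamonds with a bar of 1 SE each way from the fit to 12 arrays, and as ticks the values under the alternative settings. The ticks lie between 0.51 and 0.65 for Cs minus control in shoots, between 0.09 and 0.24 for Cs minus control in roots, and between 1.77 and 2.34 for root minus shoot.

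Because MT1C is a root-rich transcript, markers of roots were read in the same shoot arrays. Summed over the 5 root markers PYK10, EXPA7, AT4G15390, AT4G33720 and AT3G01190, the signal was 355 to 938 in Cs shoots and 396 to 676 in control shoots. The 2 ranges overlapped, and 4 of the 5 markers had a higher mean in Cs shoots, AT4G33720 being the exception. None of their shoot values was at 0. PYK10, a beta-glucosidase typical of roots, averaged 518 ± 242 in Cs shoots and 461 ± 108 in control shoots (SD, n = 3 each). It had 302, 472 and 779 in Cs shoots 1, 2 and 3, against 347, 475 and 561 in control shoots 1, 2 and 3. Only number 3 was thus higher in Cs.

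A broader reading used 97 probe sets, MT1C left out, whose root excess averaged over exposure was 16-fold or more. Each shoot signal was taken as a percentage of that probe set's mean root signal, and the median over the 97 was 1.19%, 2.76% and 6.13% in Cs shoots 1, 2 and 3. In control shoots 1, 2 and 3 it was 1.04%, 1.99% and 3.55%. Within each number the Cs shoot was thus the higher. Of the 97, 81 (83.5%) were above 0 in Cs against control shoots, with a median log2 difference of 0.35, where 53.1% of all tested probe sets were above 0 with a median of 0.01. These probe sets were picked for their root excess, so their shoot signals are low beside it. MT1C stood at 33.7%, 29.2% and 35.5% of its mean root signal in Cs shoots 1, 2 and 3, and at 20.6%, 21.4% and 23.9% in control shoots 1, 2 and 3. Cs minus control, the excess of MT1C was 13.1, 7.84 and 11.6 percentage points of the root mean for numbers 1, 2 and 3. The excess of the root-rich probe sets was 0.146, 0.768 and 2.58 points for the same numbers. What part root RNA had in the shoot difference was not tested.

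**Figure D4:**
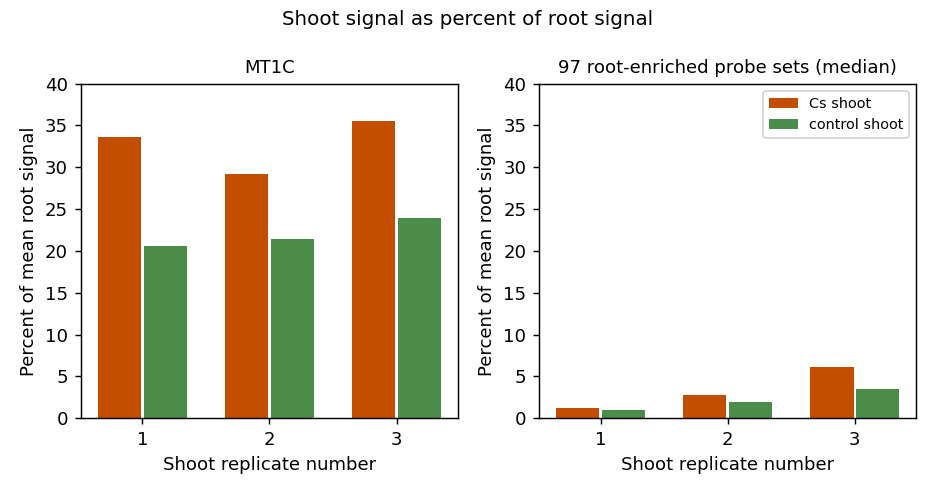
Shoot signal as a percentage of the mean root signal for MT1C (left) and for the median of 97 root-enriched probe sets (right), by replicate number, with Cs shoots beside control shoots of the same number. MT1C lies between 29.2% and 35.5% in Cs shoots and between 20.6% and 23.9% in control shoots, and the root-enriched probe sets lie between 1.19% and 6.13% in Cs shoots and between 1.04% and 3.55% in control shoots.

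Shoot transcripts in the root arrays were read likewise. The 6 photosynthesis markers summed to 437 to 2386 in Cs roots and 353 to 1089 in control roots, and all 6 had a higher mean in Cs roots. In each of the 6, Cs root 2 was the highest root array and Cs root 1 lay below control root 1. RCA had 196, 505 and 68.6 in Cs roots 1, 2 and 3, against 299, 71.1 and 84.5 in control roots 1, 2 and 3. No marker value in roots was at 0. The 271 probe sets with a shoot excess of 16-fold or more had a median of 2.13%, 5.50% and 1.48% of their shoot mean in Cs roots 1, 2 and 3, and of 3.00%, 1.70% and 1.87% in control roots 1, 2 and 3. Cs root 2 was the highest of the 6 root arrays. In Cs against control roots, 228 of the 271 (84.1%) were above 0 with a median log2 difference of 0.28, where 50.2% of all tested probe sets were above 0. The part of shoot transcripts in the root values of MT1C was not tested. Of the cell types in which metallothionein transcripts are known, 0 of 5 phloem markers have a probe set that names them alone. Of 5 trichome markers only TRY has one, with a signal of 43.7 ± 38.0 in Cs shoots and 35.5 ± 15.7 in control shoots (SD, n = 3 each).

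Other genes of metal handling and leaf ageing were set beside MT1C. Of the 8 metallothionein genes only MT1C has a probe set that names it alone, so MT1A, MT1B, MT2A, MT2B, MT3, MT4A and MT4B were not analysed here. Of 73 genes in 5 lists (glutathione and phytochelatin synthesis, copper, zinc and cadmium, iron, leaf senescence), 9 have such a probe set, all 9 were tested, and none of the 20 iron genes is among them. By limma 0 of the 9 passed in Cs roots and 0 in Cs shoots, as for 0% of all tested probe sets. Their median log2 difference was 0.10 in roots and -0.05 in shoots, where all tested probe sets had 0.00 and 0.01.

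CCS, which encodes the chaperone that delivers copper to superoxide dismutase, had the smallest root p of these 9. Its signal was 125, 72.8 and 95.1 in Cs roots 1, 2 and 3, against 64.5, 57.7 and 43.5 in control roots 1, 2 and 3. The groups did not overlap, with a log2 difference of 0.70 ± 0.19 (SE; limma, unadjusted p = 0.0027, adjusted p = 1). CCS had 0.23 ± 0.19 in shoots. SAG29, a sugar transporter gene of ageing leaves, was the other of the 9 with all Cs roots above all control roots, at 23.9 ± 1.27 and 15.8 ± 3.04 (SD, n = 3 each). All its root signals lay under the root filter level of 31.2, so they are near the noise and it entered the tests through shoots. In shoots SAG29 had 165 and 176 on the Cs and control arrays numbered 1, and 3.75 to 24.3 on the other shoot arrays. Its log2 difference in roots was 0.38 ± 0.89 (SE; limma, unadjusted p = 0.674). That SE pools the spread of all 4 groups, so it holds this shoot scatter and does not measure the root spread alone. WRKY6, a transcription factor gene linked to senescence, had 72.6 ± 6.22 in Cs roots and 93.8 ± 19.1 in control roots, with all 3 Cs arrays below. Over all tested probe sets, Cs roots lay wholly above control roots in 4.57% and wholly below in 4.32%.

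None of the 6 remaining members passed in roots. GR1 and GR, which encode glutathione reductases, had log2 differences of 0.10 ± 0.47 and -0.13 ± 0.21 in roots. ZIP9, a metal transporter gene of the ZIP family, had 0.05 ± 0.23, and bZIP19, a regulator of the response to zinc shortage, had -0.05 ± 0.18. SAG101, a senescence-associated gene, had 0.47 ± 0.29, and WRKY53, a transcription factor gene of leaf ageing, had 0.27 ± 0.24. Between the organs, 6 of the 9 passed as higher in root and 1, GR, as lower, beside 45.2% and 26% of all tested probe sets. GR had a log2 difference of -2.09 ± 0.15 between root and shoot, opposite in sign to MT1C.

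Transcripts that followed MT1C were ranked by Pearson's r with it over the log2 signals of the 12 arrays, among 8457 other tested probe sets that name 1 gene. On each array all probe sets share the sample and the scaling. The correlation is carried largely by the difference between organs, and 38 probe sets exceeded 0.98. The 6 highest were AT4G18340, AT4G25250, AT4G23885, AT3G19390, AT4G33420 and AT5G63940, with r between 0.987 and 0.989, where the median probe set had 0.49. All 6 were higher in root, by log2 differences of 1.35 (AT5G63940) to 4.47 (AT3G19390). Their Cs differences ran from 0.27 to 0.79 in shoots and from -0.06 to 0.28 in roots. AT4G18340, AT4G25250 and AT3G19390 had mean signals under the shoot filter level of 28.0 in Cs and control shoots alike, so their shoot values are near the noise. AT4G23885 had 37.5, 38.0 and 46.9 in Cs shoots 1, 2 and 3, against 24.7, 27.2 and 27.8 in control shoots 1, 2 and 3. Its control shoots thus all lay under 28.0. Like MT1C, AT4G23885 had all Cs shoots above all control shoots. So had AT4G18340, AT4G25250, AT4G33420 and AT5G63940, but not AT3G19390. Over all tested probe sets this held in 4.2%. The ranking includes the shoot arrays, over which r with MT1C was 0.81 (AT3G19390) to 0.96 (AT4G23885) in these 6. It thus rewards a higher signal in Cs shoots, for which MT1C was chosen, and nothing is read from this order of the shoots.

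With each organ centred on its own mean, the difference between organs no longer carries the ranking. The 6 highest were then AT2G24390, AT5G55650, LSH5, AT1G22140, AT5G54020 and AT5G51160, with r between 0.827 and 0.891 and a median of 0.05 over all 8457. None exceeded 0.9. AT2G24390, the nearest, had 41.0, 36.8 and 44.7 in Cs shoots 1, 2 and 3, against 28.5, 27.4 and 34.8 in control shoots 1, 2 and 3. It shared with MT1C the dip at Cs shoot 2 and the high values of number 3. AT2G24390 and AT1G22140 were lower in root than in shoot, by log2 differences of -0.54 and -0.94, so they part from MT1C between organs. The root signals of AT2G24390, 15.8 to 26.3, all lay under the root filter level of 31.2, so they are near the noise. AT1G22140 had 380 ± 38.4 in Cs shoots and 325 ± 12.9 in control shoots (SD, n = 3 each). AT5G54020 and AT5G51160 also followed MT1C over the 12 uncentred arrays, with r of 0.986 and 0.984. Their mean signals in Cs and control shoots were both below 28.0, so their shoot values are near the noise. Since the ranking rewards a higher signal in Cs shoots, these shoot differences describe the likeness and support nothing.

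**Figure D5:**
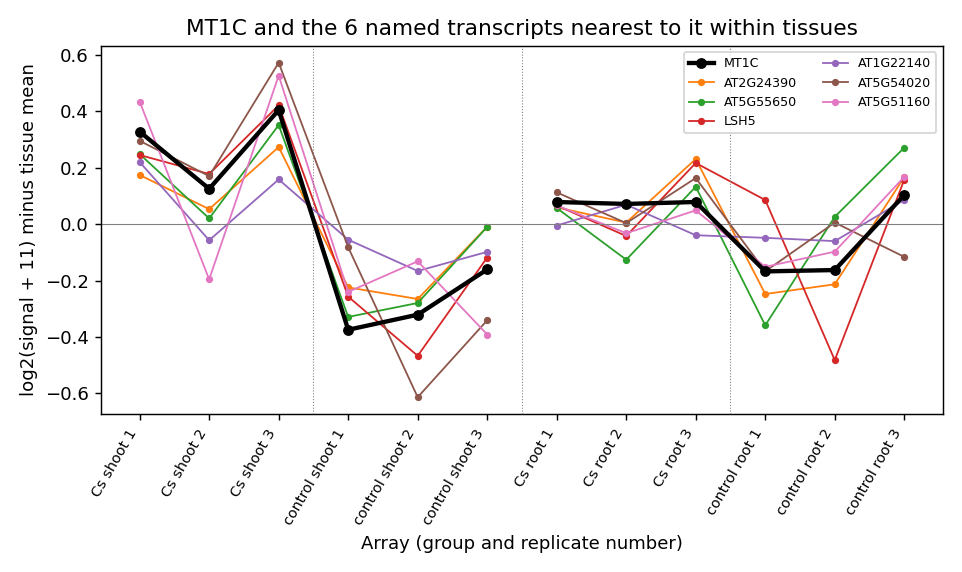
Signals (log2 of signal + 11, minus the mean of the same organ) of MT1C, as a thick black line, and of the 6 single-gene probe sets with the highest r to it after centring, by array. All 7 transcripts stand higher in Cs shoots 1 and 3 than in the control shoots, MT1C is level across the 3 Cs roots, and LSH5 and AT5G55650 scatter most in control roots.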

How the data were processed

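The deposited values are linear MAS5 intensities of 12 arrays, per the submitters' processing notes, which give no version. Their 2% trimmed mean was 100.0 on every array, the mark of MAS5 scaling. No 2 arrays were identical (0 pairs), and array medians lay between 41.1 and 49.6. Precision is limited by how many arrays there are.

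Of 22810 probe sets, 64 Affymetrix controls were left out. Of the other 22746, 13513 name 1 gene in the platform annotation, 503 name several and 8730 are unnamed here, and 13436 of the 13513 were matched to the TAIR10.1 RefSeq gene table. The labels name no genome build, so no coordinates are printed.

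Signals were taken as log2(signal + 11), with a pseudocount set to 0.25 times the typical (median) array median. Probe sets whose mean reached the 40th percentile in at least 1 organ (15508) were fitted with limma 3.58.1 in R 4.3.3, with 4 group means, 8 residual degrees of freedom, an intensity trend and Benjamini-Hochberg adjustment over all of them at 0.05. The fit was also run on simulated data with independent noise on each array. That setting lacks any likeness between arrays of the same number, and nothing is drawn from it here. The gene and the lists were chosen with earlier results of these data known. Named genes are MT1C, the markers, the 2 members of each list with the smallest root p, and the 6 transcripts most like MT1C by each of 2 measures. SAG29 and WRKY53 were named after their values were seen.

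Deviations of same-numbered Cs and control arrays from their group means correlated by 0.71, 0.42 and 0.45 in shoots for numbers 1, 2 and 3, and by 0.47, -0.02 and 0.40 in roots. Among unlike numbers in shoots, Cs 1 had -0.43 with control 2 and -0.58 with control 3. Cs 2 had 0.37 with control 3, and Cs 3 had 0.20 with control 2. Deviations from a group mean cancel when added over the group, so the values of unlike numbers depend on those of like numbers and are not separate evidence. On these data, not on the labels, the shoot arrays numbered 1 stand out as a pair. Pairing is less clear for shoot numbers 2 and 3, and it does not hold for all root arrays.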

Additional observations from a re-analysis of the deposited data

How the results depend on the processing

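Alternatives were pseudocounts of 2.75 and 44, no filter and a 60th percentile filter, no intensity trend, quantile normalization, array weights, centring on array medians, 1 organ alone, a replicate block, exact permutation, each array left out in turn, and, added after seeing the data, leaving out the 4 arrays numbered 1. MT1C kept its direction and its side of the threshold in all 25 for Cs roots and all 23 for root against shoot, and its described shoot difference moved by less than 1 SD in all 24. Not all of these could have differed. The exact permutation of root labels cannot give a p under 0.1, and leaving out a shoot array cannot change the root difference. With array-wise omission it ranged from 0.1057 to 0.2411 in roots, from 1.841 to 1.917 between organs, and from 0.5114 to 0.6508 in shoots, and its root minus shoot difference of Cs differences from -0.4992 to -0.3295. The replicate block left its values at 0.15 in roots (adjusted p = 0.961), 1.89 between organs and 0.57 in shoots, where the SE was 0.09 in shoot arrays alone, and it changed no call of MT1C. The count of probe sets called in roots was 0, but 1 with the pseudocount of 44, 11 in root arrays alone with a replicate block, 6 without the 4 arrays numbered 1, and 0 to 10 with single arrays left out, the 10 arising without Cs root replicate 1. The cause was not tested. In shoots the count was 0 under every alternative run. Between organs it lay between 8692 and 12235, beside 11031. With 3 arrays a group, the median 95% half-width of a log2 Cs difference was 0.43.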
